A study of Mus musculus with 12 samples.

Results

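A set of 6 genes of the Fc receptor system was followed across 12 mouse RNA-seq libraries: the adaptor chains Fcer1g and Tyrobp, the activating IgG receptors Fcgr1, Fcgr3 and Fcgr4, and the inhibitory IgG receptor Fcgr2b. They are the 6 of 35492 gene symbols in the deposited tables that carry these names, and they were picked with their levels in these libraries already known, so their own levels and differences are given as a description. Total RNA from 300000 CD4+ T cells was sequenced per library, in 4 groups of 3 libraries, from C57BL/6J mice aged 7 weeks. Tfh_TILS libraries came from T cells inside MC38 tumours, a transplanted mouse colon carcinoma, sorted for CD4, CXCR5 and PD1, surface proteins that mark follicular helper T (Tfh) cells. Tfh_OTII libraries came from cells of OT-II mice, which carry a transgenic T cell receptor for ovalbumin, and Tfh_Vitro libraries from wild-type cells, both grown on plates coated with anti-CD3 and anti-CD28. Those 2 cultures received IL-6 and IL-21, each at 50 ng/ml, with antibodies at 10 µg/ml that block IL-4, IFNγ and TGFβ. Th1_Vitro libraries came from wild-type cells on such plates with 10 ng/ml of IL-12 and anti-IL-4 at 10 µg/ml. The titles give a culture time of 24 h for Tfh_Vitro and Th1_Vitro and 48 h for Tfh_OTII, but the protocol states 48 h throughout, so time and mouse line cannot be told apart in the comparison of Tfh_OTII with Tfh_Vitro.

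Receptors for the Fc part of IgG let a cell sense antibody bound to a target. Mouse FcγRI (Fcgr1), FcγRIII (Fcgr3) and FcγRIV (Fcgr4) bind the antibody and hand the signal to a partner, the FcRγ chain encoded by Fcer1g, whose immunoreceptor tyrosine-based activation motif (ITAM) recruits the kinase Syk. FcγRIIB (Fcgr2b) carries an inhibitory motif (ITIM) in its own tail, which recruits a phosphatase and dampens the response. Tyrobp, also called DAP12, is a second ITAM adaptor, used by a different set of receptors. These genes are best known from macrophages, monocytes, neutrophils, mast cells and natural killer (NK) cells, and Fcgr2b also from B cells. T cells mainly signal through ITAMs of the CD3 chains and of Cd247 (CD3ζ), the nearest relative of the FcRγ chain.

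In the GENCODE M21 annotation of GRCm38 (mm10), 4 of the 6 genes lie close together on chromosome 1: Fcgr2b at chr1:170958617-170976547 on the minus strand, Fcgr4 at chr1:171018920-171029761 on the plus strand, Fcgr3 at chr1:171051174-171064935 on the minus strand and Fcer1g at chr1:171229572-171234365 on the minus strand. Fcgr1 lies at chr3:96282909-96293969 on the minus strand and Tyrobp at chr7:30413760-30417585 on the plus strand. The 120 bases before the RefSeq transcription start (GRCm38.p6) are shown for 4 receptor-system genes whose levels varied together among the tumour libraries. They run 5′ to 3′ on the strand of the gene and end at the base next to the start. Capitals mark the letters GAGGAA, searched on both strands. This is the core of the purine-rich box bound by PU.1 (encoded by Spi1), a transcription factor of myeloid and B cells.
Fcgr1: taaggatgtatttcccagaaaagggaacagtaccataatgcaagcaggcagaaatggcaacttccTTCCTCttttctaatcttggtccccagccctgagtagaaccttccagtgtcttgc
Fcgr3: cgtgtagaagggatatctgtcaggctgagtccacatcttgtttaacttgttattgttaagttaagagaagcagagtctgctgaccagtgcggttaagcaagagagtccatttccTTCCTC
Fcgr4: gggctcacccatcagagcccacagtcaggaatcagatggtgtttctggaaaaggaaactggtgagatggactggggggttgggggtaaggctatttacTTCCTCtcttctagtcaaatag
Fcer1g: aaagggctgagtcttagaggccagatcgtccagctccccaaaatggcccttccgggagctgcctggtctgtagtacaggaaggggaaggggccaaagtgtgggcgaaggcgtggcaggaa
The windows are chr3:96293970-96294089 (minus strand) for Fcgr1, chr1:171059404-171059523 (minus strand) for Fcgr3, chr1:171018806-171018925 (plus strand) for Fcgr4 and chr1:171234350-171234469 (minus strand) for Fcer1g. The RefSeq start of Fcgr3 lies inside the longer GENCODE gene. The GAGGAA letters stood, in the reverse orientation, in the windows of Fcgr1, Fcgr3 and Fcgr4, beginning 55, 6 and 22 bases before the start. That is 3 of the 5 members with a RefSeq promoter, against 11.6% of 27025 promoters over the same length. Over 250 bases it was 3 of 5 against 23.1%. The windows of Fcer1g and Fcgr2b did not hold these letters. Annotated exons covered 73 of the 120 bases for Fcgr2b, whose RefSeq start also lies inside the GENCODE gene. They covered 16 bases for Fcer1g and 6 for Fcgr4, so these windows are not wholly upstream of the annotated genes. Of 2 other motifs searched on both strands, TTCNNNGAA, the form bound by STAT factors, stood in the Fcgr1 window beginning 109 bases before the start (3.2% of promoters). An interferon response form, GAAA followed after any 2 bases by GAAA, stood in the Fcgr4 window beginning 73 bases before the start (1.21% of promoters). None of these matches overlapped another.

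All levels are in TPM, a transcript's length-corrected share of its library, so levels of different genes can be set side by side, but it keeps no sequencing depth, and the depth of these libraries is unknown. A value of 0 is given only as listed at 0. Differences are means of log2(TPM + 1) in one group minus those in another, with the standard error (SE) of a limma fit to 23308 genes with a group mean of at least 1 TPM, and a gene counts as called at an adjusted p under 0.05 over all of them. Every member passed that filter, and in at least 3 of the 4 groups. The fit holds 1 spread per gene over all 12 libraries, so SEs and calls of Tfh_TILS also carry the spread of the cultures. For Fcer1g the highest library was 10.8 times the lowest in Tfh_TILS and 4.73 times in Th1_Vitro. It was 1.14 times in Tfh_OTII and 1.54 times in Tfh_Vitro, so the SE of Fcer1g understates the spread of the tumour libraries. The labels do not say whether the libraries of a group came from separate animals or cultures, so the errors and calls reflect library-to-library spread that could be purely technical. T cell markers were present in all 12 libraries, with Cd3e between 37.3 and 361 TPM. The Tfh markers Cxcr5 and Bcl6 were highest in Tfh_TILS libraries, at 11.0 to 16.3 and 11.0 to 18.8 TPM. Il21, another of the 5 Tfh markers, went the other way, with a mean of 6.89 TPM in Tfh_TILS, 69.8 TPM in Tfh_OTII and 88.5 TPM in Tfh_Vitro. Th1_Vitro libraries stood apart, since the 14 genes that exceed 1% of TPM in any library took 51.7% to 67.9% of TPM there and 13.2% to 33.4% elsewhere. Scaling by median-of-ratios size factors moved the median difference of all genes against Th1_Vitro to 0.11 for Tfh_TILS, 0.074 for Tfh_OTII and 0.087 for Tfh_Vitro, against 0.87, 0.79 and 0.78 as deposited. Comparisons with Th1_Vitro are therefore given both ways, and rose or fell is written there only for genes called in the same direction both ways.

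Fcer1g, the shared signalling chain of the activating receptors, had 22.6, 244 and 49.3 TPM in the Tfh_TILS libraries. It had 1.05, 0.927 and 0.989 TPM in the Tfh_OTII libraries, 5.18, 3.75 and 3.37 TPM in the Tfh_Vitro libraries, and 1.81, 8.56 and 6.87 TPM in the Th1_Vitro libraries. All 3 tumour libraries were above all 9 cultured ones, and the OT-II libraries were lower than every other library. Fcer1g therefore ordered the groups as Tfh_TILS first and Tfh_OTII last, with Tfh_Vitro and Th1_Vitro overlapping in between. The difference of Tfh_TILS was 5.06 ± 0.67 (log2, SE) from Tfh_OTII, 3.72 ± 0.67 from Tfh_Vitro and 3.48 ± 0.67 from Th1_Vitro, or 2.40 ± 0.65 from Th1_Vitro after scaling.

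Tyrobp, the DAP12 adaptor, had 9.02, 117 and 26.2 TPM in Tfh_TILS libraries. It had 4.27, 2.15 and 0.764 TPM in Tfh_OTII libraries, 3.49, 1.51 and 3.28 TPM in Tfh_Vitro libraries and 3.86, 5.70 and 1.77 TPM in Th1_Vitro libraries. The tumour libraries were again above every cultured one, while the 3 cultures overlapped and had no order among themselves. The difference of Tfh_TILS was 3.37 ± 0.71 from Tfh_OTII and 3.13 ± 0.71 from Tfh_Vitro. From Th1_Vitro it was 2.83 ± 0.71 as deposited and 1.78 ± 0.68 after scaling, at which these libraries overlapped. Within each Tfh_TILS library Fcer1g was 1.88 to 2.51 times Tyrobp, a narrow range beside the spread of either gene. The same ratio ran from 0.246 to 1.29 in Tfh_OTII, from 1.03 to 2.49 in Tfh_Vitro and from 0.469 to 3.89 in Th1_Vitro.

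**Figure D1:**
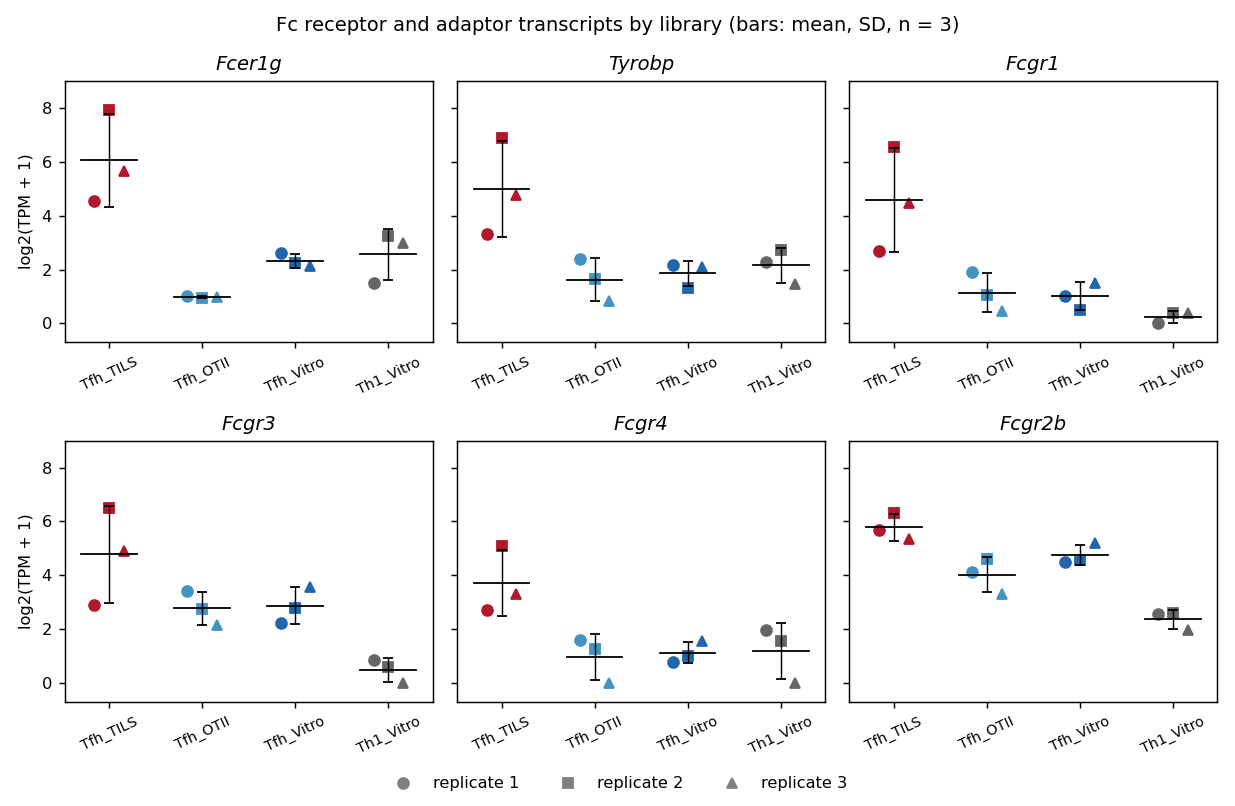
Level of each gene as log2(TPM + 1) in the 12 libraries, with Tfh_TILS in red, Tfh_OTII in light blue, Tfh_Vitro in dark blue and Th1_Vitro in grey. Symbols give the replicate number, the horizontal bar the mean and the vertical bar the SD (n = 3); the Tfh_TILS libraries lie above all others in every panel but that of Fcgr3, and replicate 2 is the highest of them.

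The high-affinity receptor Fcgr1, the one that holds monomeric IgG, had 5.44, 93.2 and 21.2 TPM in Tfh_TILS libraries. It had 2.73, 1.07 and 0.380 TPM in Tfh_OTII libraries and 1.05, 0.418 and 1.86 TPM in Tfh_Vitro libraries, and in Th1_Vitro it was listed at 0 in 1 library and had 0.308 and 0.294 TPM in the others. Tumour libraries stood above every culture, the 2 Tfh cultures overlapped, and both had higher levels than Th1_Vitro in each library as deposited but overlapped with it after scaling. As deposited, 49.5% of all genes tested were separated this way from Th1_Vitro in Tfh_OTII and 55.6% in Tfh_Vitro. The difference of Tfh_TILS was 3.44 ± 0.72 from Tfh_OTII and 3.55 ± 0.72 from Tfh_Vitro. From Th1_Vitro it was 4.32 ± 0.72 as deposited and 3.81 ± 0.66 after scaling. Fcgr1 had the widest range of the 6 genes inside the tumour group, with 17.1 times as much in replicate 2 as in replicate 1.

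Fcgr3, the low-affinity activating receptor found on most myeloid cells and NK cells, had 6.53, 89.0 and 29.1 TPM in Tfh_TILS libraries. It had 9.57, 5.78 and 3.46 TPM in Tfh_OTII libraries, 3.67, 5.96 and 11.0 TPM in Tfh_Vitro libraries, and 0.806, 0.527 and 0 TPM in Th1_Vitro libraries. Here the lowest tumour library lay within the range of both Tfh cultures, so Fcgr3 was the 1 member whose tumour libraries overlapped with a culture as deposited. The Th1_Vitro libraries lay below all 9 others. As deposited, 54.9% of all genes tested lay above Th1_Vitro without overlap in Tfh_TILS, 49.5% in Tfh_OTII and 55.6% in Tfh_Vitro. The difference of Tfh_TILS was 2.00 ± 0.69 from Tfh_OTII and 1.90 ± 0.69 from Tfh_Vitro, neither of which was called. Among the cultures, Fcgr3 was 2.29 ± 0.69 higher in Tfh_OTII and 2.38 ± 0.69 higher in Tfh_Vitro than in Th1_Vitro, and 1.74 ± 0.64 and 1.87 ± 0.64 higher after scaling, when neither was called. Of the distinct stretches of 31 bases in its annotated transcripts, 13.4% also occur in Fcgr2b, so reads of these 2 genes could be split between them and the level of Fcgr3 is uncertain to that extent. For Fcgr2b the share that occurs in any other gene was 5.78%.

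Fcgr4, an activating receptor of mouse monocytes, macrophages and neutrophils, was the least abundant receptor in the tumour group by mean level, with 5.59, 33.3 and 8.97 TPM in Tfh_TILS libraries. It had 2.05, 1.40 and 0 TPM in Tfh_OTII libraries, 0.731, 1.03 and 1.98 TPM in Tfh_Vitro libraries and 2.91, 1.96 and 0 TPM in Th1_Vitro libraries. The tumour libraries were above every cultured library and the 3 cultures overlapped. The difference of Tfh_TILS was 2.75 ± 0.64 from Tfh_OTII and 2.58 ± 0.64 from Tfh_Vitro. From Th1_Vitro it was 2.54 ± 0.64 as deposited and 1.70 ± 0.67 after scaling, when the libraries overlapped and the gene was not called.

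The inhibitory receptor Fcgr2b behaved differently in level and in spread. It had 50.5, 78.2 and 39.4 TPM in Tfh_TILS libraries, 16.5, 23.4 and 8.93 TPM in Tfh_OTII libraries, 21.8, 22.8 and 35.6 TPM in Tfh_Vitro libraries and 4.85, 5.06 and 2.87 TPM in Th1_Vitro libraries. It was the most abundant of the 4 IgG receptors in 11 of the 12 libraries, the exception being Tfh_TILS replicate 2. The means were 56.0 ± 19.9 TPM in Tfh_TILS, 16.3 ± 7.23 in Tfh_OTII, 26.7 ± 7.68 in Tfh_Vitro and 4.26 ± 1.21 in Th1_Vitro (SD, n = 3 each). The difference of Tfh_TILS was 1.76 ± 0.36 from Tfh_OTII, 1.02 ± 0.36 from Tfh_Vitro and 3.41 ± 0.36 from Th1_Vitro, or 2.33 ± 0.36 from Th1_Vitro after scaling. The lowest tumour library, at 39.4 TPM, was close to the highest Tfh_Vitro library, at 35.6 TPM. Both Tfh cultures had more Fcgr2b than Th1_Vitro in every library as deposited, as 49.5% of all genes tested had in Tfh_OTII and 55.6% in Tfh_Vitro. After scaling the Tfh_OTII libraries overlapped with Th1_Vitro. The difference of Tfh_Vitro from Th1_Vitro was 2.39 ± 0.36, or 1.45 ± 0.36 after scaling, and was called both ways; that of Tfh_OTII was 1.65 ± 0.36 and was 0.67 ± 0.36 and not called after scaling. An annotated antisense gene, Gm38204, overlaps Fcgr2b. The library kit keeps the strand, but how the strand was used in quantification is not given in the sources used here.

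The balance of inhibitory and activating receptor transcripts varied more among tumour libraries than between the Tfh cultures. Fcgr2b made up 74.2%, 26.6% and 40.0% of the summed TPM of the 4 IgG receptors in Tfh_TILS libraries. It made up 53.4%, 73.9% and 69.9% in Tfh_OTII libraries, 80.0%, 75.5% and 70.6% in Tfh_Vitro libraries, and 56.6%, 64.4% and 90.7% in Th1_Vitro libraries. Tfh_TILS replicate 1 thus had a culture-like share, and replicates 2 and 3 had shares below all 9 cultured libraries. The sum of the 4 receptors was 68.1, 294 and 98.7 TPM in Tfh_TILS, 12.8 to 31.6 TPM in Tfh_OTII, 27.2 to 50.4 TPM in Tfh_Vitro and 3.16 to 8.56 TPM in Th1_Vitro.

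**Figure D2:**
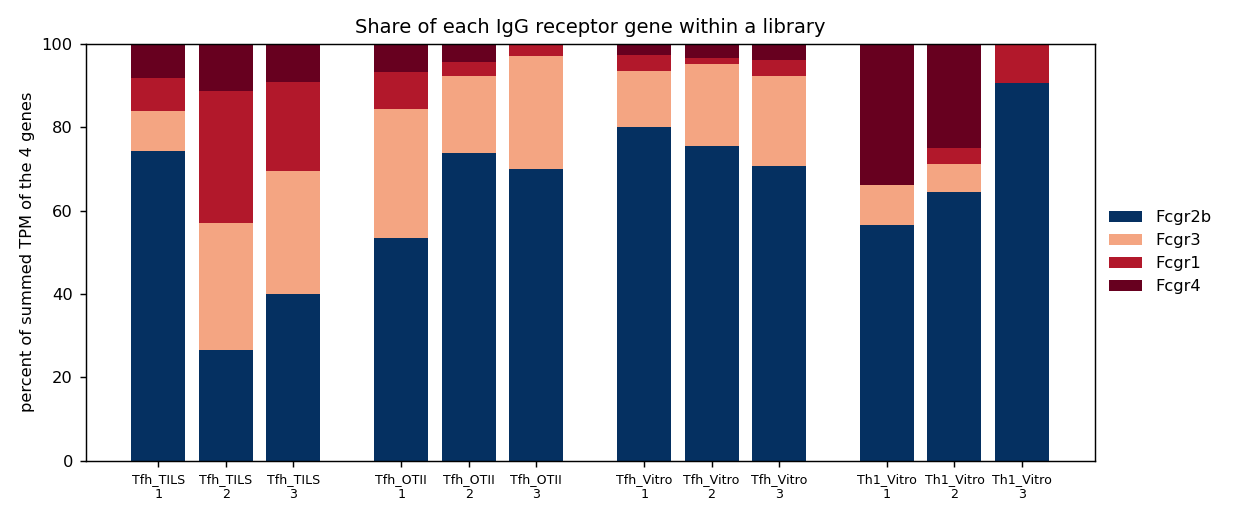
Share of each of the 4 IgG receptor genes in their summed TPM (percent, vertical axis), one bar per library, ordered Tfh_TILS, Tfh_OTII, Tfh_Vitro and Th1_Vitro with the replicate number under each bar. The inhibitory receptor Fcgr2b (dark blue, bottom) holds 74.2%, 26.6% and 40.0% of the bar in the Tfh_TILS libraries and at least 53.4% in the cultured ones.

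The FcRγ chain is needed by the activating receptors, so its level was set against theirs. Fcer1g was 1.29, 1.13 and 0.832 times the summed TPM of Fcgr1, Fcgr3 and Fcgr4 in Tfh_TILS libraries. It was 0.0733, 0.112 and 0.258 times that sum in Tfh_OTII libraries and 0.950, 0.506 and 0.228 times in Tfh_Vitro libraries. In Th1_Vitro the ratio was 0.487, 3.07 and 23.4, the last over a sum of only 0.294 TPM. Cd247, the corresponding chain of the T cell receptor, was 4.48, 0.598 and 1.96 times Fcer1g in Tfh_TILS libraries, so that Fcer1g exceeded Cd247 in replicate 2. Cd247 was 188 to 225 times Fcer1g in Tfh_OTII, 30.8 to 42.3 times in Tfh_Vitro and 5.81 to 14.5 times in Th1_Vitro.

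Of the 6 members 5, all but Fcgr3, had all 3 tumour libraries above all 9 cultured libraries, which 6.77% of the genes tested had. All members but Fcgr2b, 5 of 6, ran from replicate 2 through replicate 3 to replicate 1 in the tumour group, an order found in 29.6% of the genes tested. Replicate 2 had 10.8 times the Fcer1g of replicate 1, 13.0 times the Tyrobp, 13.6 times the Fcgr3 and 5.96 times the Fcgr4, but 1.55 times the Fcgr2b. After scaling these ratios were 8.72, 10.5, 11.0, 4.82 and 1.25. Against Tfh_Vitro 3 of the 6 were called higher (Fcer1g, Tyrobp and Fcgr1), where 1.15% of all genes were. Against Tfh_OTII 5 were called higher, all but Fcgr3, where 7.97% of all genes were. Against Th1_Vitro 6 were called higher as deposited, where 49.3% of all genes were, and 4 after scaling (Fcer1g, Fcgr1, Fcgr3 and Fcgr2b), where 10.8% were. The members were chosen on these values, and the 3 comparisons share the Tfh_TILS libraries, so nothing is read from these counts. Without Tfh_TILS replicate 2, which had the highest level of each member, 2 members were called against Tfh_Vitro, 5 against Tfh_OTII and 6 against Th1_Vitro, where 1.46%, 11.6% and 41.2% of all genes were. Against Tfh_Vitro the count was 5 without Tfh_TILS replicate 1 and 1 without Tfh_TILS replicate 3, where 3.71% and 0.772% of all genes were called. It was 0 without Tfh_Vitro replicate 1, 2 or 3, where 0.437%, 0.402% and 0.835% were. The count was also 0 when only Tfh_TILS and Tfh_Vitro were fitted.

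**Figure D3:**
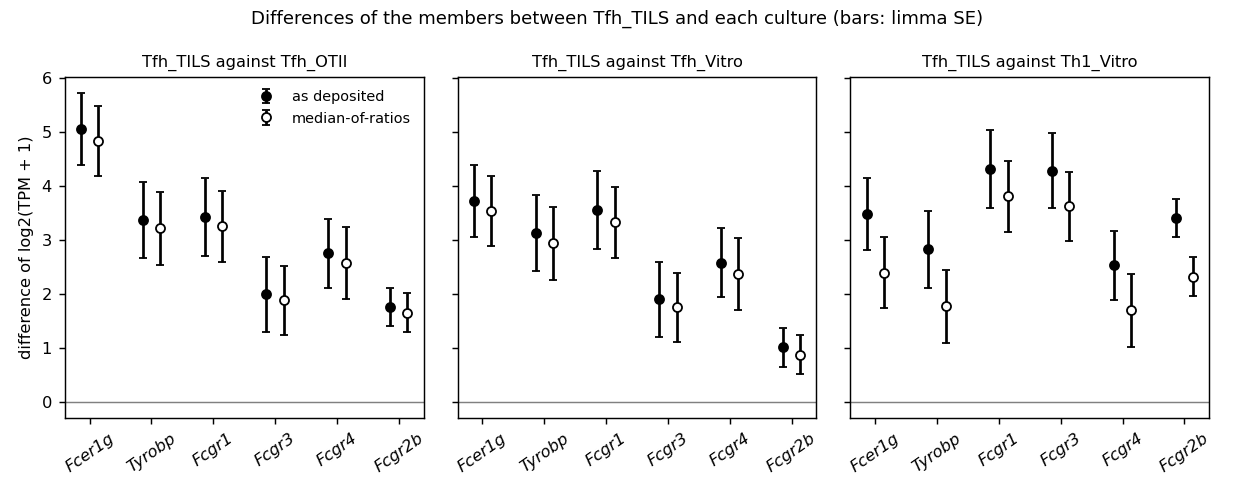
Difference of log2(TPM + 1) for the 6 genes between Tfh_TILS and Tfh_OTII, Tfh_Vitro and Th1_Vitro, from left to right, with limma SE as bars; filled circles are values as deposited and open circles are values after median-of-ratios scaling. All 36 points lie above 0, and scaling lowers the points against Th1_Vitro the most.

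Among the cultures, Tfh_OTII was first set against Tfh_Vitro. None of the 6 members was called by limma in either direction (2.38% of all genes were), and none had an unadjusted p under 0.05. The fit held 1 spread per gene over all 12 libraries, so SEs and p-values between cultures also carry the spread among Tfh_TILS libraries. A difference that was not called is therefore not shown to be absent. Fcer1g had the largest difference, -1.34 ± 0.67, with the 3 Tfh_OTII libraries below the 3 Tfh_Vitro libraries (8.1% of all genes were separated this way). It was called when only these 2 groups were fitted. Fcgr2b differed by -0.74 ± 0.36, Tyrobp by -0.24 ± 0.71, Fcgr4 by -0.17 ± 0.64, Fcgr3 by -0.09 ± 0.69 and Fcgr1 by 0.12 ± 0.72, each with overlapping libraries. Against Th1_Vitro, Fcer1g in Tfh_OTII differed by -1.58 ± 0.67 as deposited and by -2.43 ± 0.65 after scaling, with no overlap either way (1.56% of all genes as deposited). It was called lower only after scaling, where 8.38% of all genes were. In all, 2 members were called higher in Tfh_OTII than in Th1_Vitro as deposited, where 42.7% of all genes were, and 0 after scaling, where 12.7% were. In Tfh_Vitro 2 were called higher than in Th1_Vitro, where 41.1% of all genes were, and 1, Fcgr2b, after scaling, where 9.14% were. Fewer were called as deposited with some libraries left out: 1 in Tfh_OTII without Tfh_OTII replicate 1 or Th1_Vitro replicate 3, and 1 in Tfh_Vitro without Tfh_Vitro replicate 3.

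Other genes of the same signalling system were taken from 7 lists with 93 genes besides the members, of which 83 were tested. Against Tfh_Vitro 10 of the 83 rose in Tfh_TILS and 0 fell, where 1.15% and 0.944% of all genes did. Their median difference was 0.61, against 0.10 over all genes. Against Tfh_OTII 21 rose and 2 fell, where 7.97% and 7.29% of all genes did, with a median of 0.60 against 0.06. Against Th1_Vitro 62 were called higher and 1 lower as deposited (49.3% and 0.601% of all genes) and 21 and 2 after scaling (10.8% and 7.67%); 21 rose and 1 fell both ways. Without Tfh_TILS replicate 2, 7 of these genes were called higher and 1 lower against Tfh_Vitro, where 1.46% of all genes were called. Against Tfh_OTII 16 were then called higher and 5 lower, where 11.6% of all genes were called. The count against Tfh_Vitro, all of it higher, was 24 without Tfh_TILS replicate 1 and 6 without Tfh_TILS replicate 3, where 3.71% and 0.772% of all genes were called. It was 3 without Tfh_Vitro replicate 1 or 2 and 6 without Tfh_Vitro replicate 3, where 0.437%, 0.402% and 0.835% of all genes were called. Against Tfh_OTII 14 were called higher and 1 lower without Tfh_OTII replicate 3.

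The list with the highest median was that of other receptors that signal through the FcRγ chain, which are C-type lectins and immunoglobulin-like receptors. Of 7 tested, 4 rose against Tfh_Vitro and 5 against Tfh_OTII, with medians of 2.13 and 1.88. Clec4e (Mincle) had 23.1, 114 and 39.8 TPM in Tfh_TILS libraries, 0.67 to 1.43 TPM in Tfh_OTII libraries and 1.72 to 2.41 TPM in Tfh_Vitro libraries. Its difference from Tfh_OTII was 4.66 ± 0.45 and from Tfh_Vitro 4.01 ± 0.45. Clec4d, the partner of Mincle, had 13.0, 187 and 40.5 TPM in Tfh_TILS libraries, 0.46 to 1.11 TPM in Tfh_OTII libraries and 1.03 to 1.65 TPM in Tfh_Vitro libraries. Clec4n (Dectin-2) rose by 3.50 ± 0.49 and 3.95 ± 0.49 over these cultures, and the paired immunoglobulin-like receptor Pira2 by 1.88 ± 0.39 and 2.13 ± 0.39. Tarm1 rose against Tfh_OTII, by 1.48 ± 0.40. These receptors kept the order of replicates 2, 3 and 1 seen for Fcer1g in Clec4e, Clec4n, Clec4d, Pira2 and Tarm1 alike.

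The list of receptors that pair with Tyrobp or its relative Hcst also holds Hcst itself. Of its 16 tested genes, 2 rose against Tfh_Vitro and 4 against Tfh_OTII. Against Tfh_Vitro the count was 5 without Tfh_TILS replicate 1 and 0 without any single one of the other Tfh_TILS or Tfh_Vitro libraries, and against Tfh_OTII 2 were called higher without Tfh_OTII replicate 3. Clec5a rose by 2.00 ± 0.47 over Tfh_OTII and 2.05 ± 0.47 over Tfh_Vitro, and Pilrb1 by 1.56 ± 0.41 and 2.06 ± 0.41. Sirpb1c, by 2.69 ± 0.53, and Siglech, a receptor of plasmacytoid dendritic cells, by 2.18 ± 0.46, rose against Tfh_OTII. Of 10 other Fc and Fc-like receptors 0 were called by limma against Tfh_Vitro, and 4 had an unadjusted p under 0.05. Against Tfh_OTII 3 of the 10 rose, all known from B cells: Fcrla by 1.76 ± 0.37, Fcrl1 by 1.59 ± 0.33 and the IgM receptor Fcmr by 1.31 ± 0.33. The heavy chain genes Ighd, by 1.96 ± 0.36, and Ighm, by 1.36 ± 0.25, rose there too, and Ighd rose by 1.75 ± 0.36 against Tfh_Vitro. The ligand-binding chain of the mast cell IgE receptor, Fcer1a, which also uses Fcer1g, was at most 1.16 TPM in any library.

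Downstream of the ITAM, 1 of 25 kinases and scaffolds rose against Tfh_Vitro, or 9 without Tfh_TILS replicate 1 and 0 without Tfh_Vitro replicate 1 or 2. Against Tfh_OTII 5 of the 25 rose, among them Lyn, the Src-family kinase that phosphorylates ITAMs and ITIMs, by 2.41 ± 0.64, and Syk by 2.40 ± 0.51. The number higher against Tfh_OTII was 8 without Tfh_TILS replicate 1 and 3 without Tfh_TILS replicate 3. It was 2 without Tfh_TILS replicate 2, when 2 were lower, and 2 without Tfh_OTII replicate 2 or 3. Syk itself had 6.39, 36.8 and 13.0 TPM in Tfh_TILS libraries, 1.38 to 3.19 TPM in Tfh_OTII libraries and 2.95 to 3.33 TPM in Tfh_Vitro libraries. Vav2, an exchange factor, fell by 0.93 ± 0.26 against Tfh_OTII. On the inhibitory side, 2 of 16 genes rose against each Tfh culture: the receptor Pirb, by 3.06 ± 0.52 over Tfh_OTII and 2.87 ± 0.52 over Tfh_Vitro, and Sirpa, the CD47 receptor, by 2.94 ± 0.60 and 3.01 ± 0.60. The number higher against Tfh_Vitro was 4 without Tfh_TILS replicate 1, 1 without Tfh_TILS replicate 2 or 3 or Tfh_Vitro replicate 3, and 0 without Tfh_Vitro replicate 1 or 2; against Tfh_OTII it was 4 without Tfh_TILS replicate 1. Ptpn6, the phosphatase SHP-1 that binds ITIMs, fell against Tfh_OTII, by 2.11 ± 0.34, with 90.4, 245 and 128 TPM in Tfh_TILS and 590 to 638 TPM in Tfh_OTII. None of the 4 T cell receptor ITAM chains was called by limma against Tfh_OTII or Tfh_Vitro, and 2 and 0 of them had an unadjusted p under 0.05. Without Tfh_TILS replicate 2, 1 of the 4 was called lower against Tfh_OTII, where 11.6% of all genes were called, and 0 against Tfh_Vitro. Cd247 had 101, 146 and 96.5 TPM in Tfh_TILS libraries, 194 to 209 TPM in Tfh_OTII libraries and 134 to 160 TPM in Tfh_Vitro libraries.

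**Figure D4:**
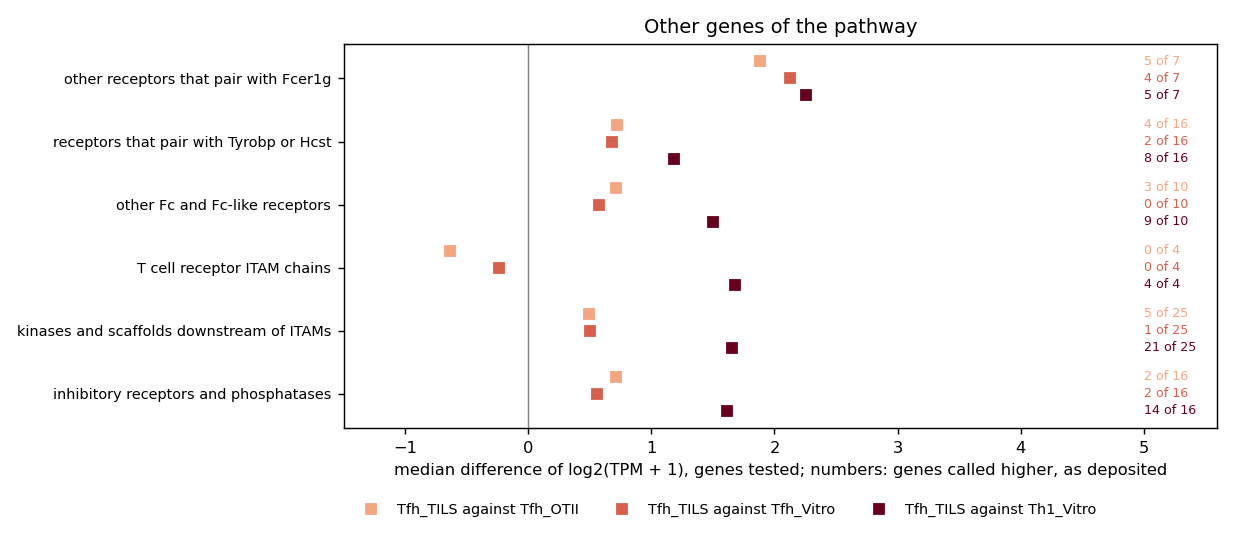
Median difference of log2(TPM + 1) between Tfh_TILS and each culture over the tested genes of 6 lists, with the number called higher as deposited at the right. Over all genes the medians were 0.06 against Tfh_OTII, 0.10 against Tfh_Vitro and 0.87 against Th1_Vitro; the receptors that pair with Fcer1g have the highest median in each comparison, at 1.88, 2.13 and 2.25.

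Between the cultures, 0 of the 83 genes were called by limma in Tfh_OTII against Tfh_Vitro, and 3 had an unadjusted p under 0.05. That fit also carries the spread among Tfh_TILS libraries, and more were called when only these 2 groups were fitted. In Tfh_OTII against Th1_Vitro 31 were called higher and 2 lower as deposited, where 42.7% and 1.16% of all genes were. After scaling 8 were called higher and 6 lower, where 12.7% and 8.38% of all genes were. In Tfh_Vitro against Th1_Vitro 25 were called higher and 0 lower as deposited, where 41.1% and 0.511% of all genes were. After scaling 3 were called higher and 4 lower, where 9.14% and 5.59% of all genes were. None of the 7 tested receptors that pair with Fcer1g was called by limma in these 3 comparisons, and 1 had an unadjusted p under 0.05, in Tfh_OTII against Th1_Vitro.

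Markers of macrophages and monocytes moved with the members, although the Tfh_TILS cells had been sorted for CD4, CXCR5 and PD1. The 16 markers summed to 121, 1209 and 304 TPM in Tfh_TILS libraries, 21.8 to 51.7 TPM in Tfh_OTII libraries, 37.7 to 65.1 TPM in Tfh_Vitro libraries and 16.9 to 18.0 TPM in Th1_Vitro libraries, and none of the 16 was listed at 0 in a tumour library. Of the 16, 10 rose against Tfh_OTII, 6 against Tfh_Vitro and 10 against Th1_Vitro as deposited and after scaling. The number that was higher than in Tfh_Vitro was 10, 3 and 1 without Tfh_TILS replicate 1, 2 and 3, and 1, 1 and 2 without Tfh_Vitro replicate 1, 2 and 3. Lyz2, encoding lysozyme, had 34.1, 309 and 82.0 TPM in Tfh_TILS libraries and at most 10.6 TPM in any culture. Spi1, which encodes PU.1, had 10.7, 66.6 and 19.9 TPM in Tfh_TILS libraries and at most 5.30 TPM in any culture. The tumour libraries thus ran in the order 2, 3, 1 for Lyz2 and Spi1, as they did in 14 of the 16 markers. Csf1r, Cd68 and Adgre1, further macrophage genes, rose against Tfh_OTII by 2.30 ± 0.52, 3.28 ± 0.62 and 2.04 ± 0.41. Fcer1g relative to the marker sum was 0.188, 0.202 and 0.162 in Tfh_TILS, 0.0203 to 0.0455 in Tfh_OTII, 0.0518 to 0.137 in Tfh_Vitro and 0.105 to 0.507 in Th1_Vitro. For Tyrobp the ratio was 0.0748, 0.0971 and 0.0863 in Tfh_TILS, within the range of the Tfh_Vitro libraries, 0.0317 to 0.0925, for 2 of the 3. The Tyrobp ratio was 0.0351 to 0.0826 in Tfh_OTII and 0.0981 to 0.337 in Th1_Vitro. For Fcgr2b it was 0.419, 0.0646 and 0.130 in Tfh_TILS, against 0.318 to 0.645 in Tfh_OTII, 0.480 to 0.578 in Tfh_Vitro and 0.16 to 0.30 in Th1_Vitro. The part of macrophage or monocyte RNA in the members' levels was not tested, and in bulk RNA fewer cells of a type and less RNA per cell cannot be told apart.

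**Figure D5:**
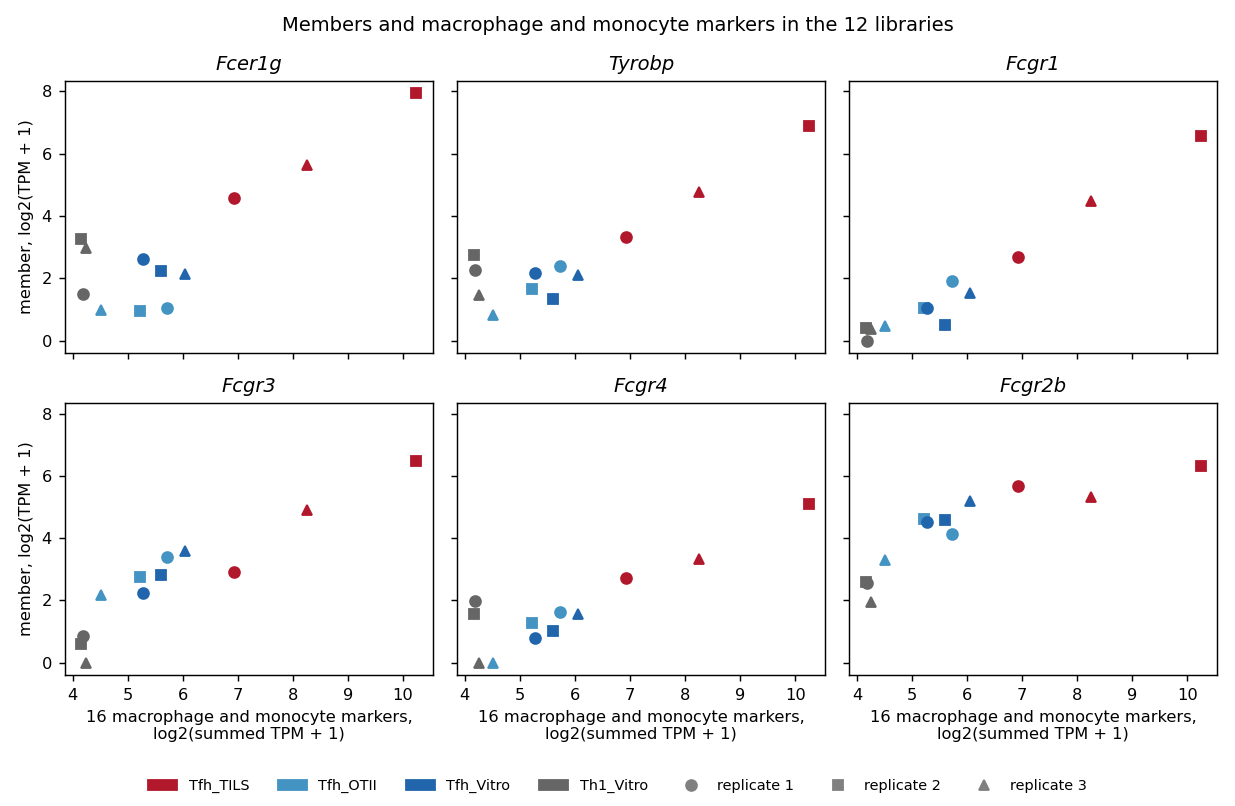
Level of each gene, as log2(TPM + 1), against the summed TPM of 16 macrophage and monocyte markers, as log2(sum + 1), in the 12 libraries; colours give the group and symbols the replicate. The 3 Tfh_TILS libraries (red) have the 3 highest marker sums, 121, 304 and 1209 TPM, and Fcgr2b spans a narrower range across them than the other genes.

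Neutrophil markers were spread still more widely inside the tumour group. The 9 markers summed to 20.5, 506 and 101 TPM in Tfh_TILS libraries, against 18.5 to 51.9 TPM in Tfh_OTII, 13.8 to 26.1 TPM in Tfh_Vitro and 8.15 to 8.38 TPM in Th1_Vitro. S100a8 was listed at 0 in Tfh_TILS replicate 1 and had 115 and 22.1 TPM in replicates 2 and 3, and Csf3r had 1.46, 51.2 and 10.5 TPM. The sum in replicate 1 was within the range of the cultures. Of the markers Mmp8 rose against both Tfh cultures, with at least 4.51 TPM in each Tfh_TILS library and at most 1.58 TPM in the cultures. The 10 B cell markers summed to 113 to 141 TPM in Tfh_TILS, 43.2 to 57.2 TPM in Tfh_OTII, 59.2 to 73.7 TPM in Tfh_Vitro and 70.2 to 97.1 TPM in Th1_Vitro. Much of each sum was Ighm, with means of 83.6, 31.8, 43.9 and 55.8 TPM in these groups. Ighm and Fcrla also belong to lists given above. Of the 10 markers 5 rose against Tfh_OTII, where 7.97% of all genes did, among them Ms4a1 (CD20), by 1.67 ± 0.40. Against Tfh_Vitro 0 rose, and 6 had an unadjusted p under 0.05. The 9 NK markers summed to 60.2 to 98.5 TPM in Tfh_TILS, 30.5 to 43.8 TPM in Tfh_OTII, 66.4 to 103 TPM in Tfh_Vitro and 21.9 to 37.1 TPM in Th1_Vitro. Ncr1 was at most 1.34 TPM and Klrb1c at most 3.16 TPM anywhere. Klre1 made up much of the Tfh_TILS and Tfh_Vitro sums, with 32.0 to 56.7 and 36.2 to 65.2 TPM. It had 8.85 to 18.6 TPM in Tfh_OTII and 2.40 to 5.71 TPM in Th1_Vitro. Gzma was lower in Tfh_TILS, with a mean of 1.26 TPM, against 6.77 TPM in Tfh_OTII, 8.47 TPM in Tfh_Vitro and 9.12 TPM in Th1_Vitro. Of the 7 NK markers tested, 1 rose and 1 fell against Tfh_OTII, and 0 rose and 1 fell against Tfh_Vitro. The 9 mast cell and basophil markers summed to 15.9, 74.4 and 28.4 TPM in Tfh_TILS, 12.1 to 25.5 TPM in Tfh_OTII, 11.2 to 20.3 TPM in Tfh_Vitro and 3.37 to 6.53 TPM in Th1_Vitro. None of the 6 tested was called by limma against either Tfh culture, and 2 had an unadjusted p under 0.05 against each. Hdc, singled out after its values were seen, had 2.15 to 57.4 TPM in Tfh_TILS and at most 5.75 TPM in the cultures. The mast cell genes Cpa3, at most 1.44 TPM, and Fcer1a were near 0 throughout, while Ms4a2, the β chain that pairs with Fcer1g, had 1.85 to 6.02 TPM in Tfh_TILS and 0.53 to 7.13 TPM in the cultures. The 10 dendritic cell markers summed to 50.5, 233 and 91.6 TPM in Tfh_TILS. They summed to 18.1 to 37.9 TPM in Tfh_OTII, 28.6 to 40.1 TPM in Tfh_Vitro and 18.5 to 37.5 TPM in Th1_Vitro. The tumour sums ran in the same order of replicates as Fcer1g, but only 5 of the 10 markers did. Much of each tumour sum was H2-Aa, with 25.04, 149.6 and 53.32 TPM. Of the 10 markers 3 rose and 1 fell against Tfh_OTII. Against Tfh_Vitro 1 rose, or 0 without Tfh_TILS replicate 3 or any Tfh_Vitro library. Without Tfh_OTII replicate 1, 5 were higher than in Tfh_OTII. The part of neutrophil, dendritic cell, mast cell, B cell or NK cell RNA was not tested either. The 12 T cell markers overlapped between Tfh_TILS and Tfh_Vitro, with sums of 2265 to 3902 TPM in Tfh_TILS, 4225 to 4559 TPM in Tfh_OTII, 2428 to 3002 TPM in Tfh_Vitro and 737 to 1654 TPM in Th1_Vitro. Much of the Tfh_OTII sum was Trac, with a mean of 2005 TPM there. Its mean was 592 TPM in Tfh_TILS, 317 TPM in Tfh_Vitro and 252 TPM in Th1_Vitro.

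The genes that lie among Fcgr2b, Fcgr4, Fcgr3 and Fcer1g on chromosome 1 gave other values. Of 13 such genes annotated between the ends of this region, 7 were in the tables and 6 were tested. None was called higher by limma in Tfh_TILS than in Tfh_OTII or Tfh_Vitro, and Tomm40l fell by 1.83 ± 0.30 against Tfh_OTII. Sdhc, a subunit of succinate dehydrogenase that lies between Fcgr3 and Fcer1g, differed by -0.47 ± 0.25 and -0.48 ± 0.25.

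Finally, 17358 tested genes were ranked by the Pearson correlation of log2(TPM + 1) with each member over the 12 libraries, which share the group structure and the high tumour replicate 2, so the values only describe likeness. The patterns most like Fcer1g were those of Cxcl10 (r = 0.986), Ifi211 (0.981) and Isg15 (0.976), genes induced by interferon. Cxcl10 had 24.2, 240 and 56.0 TPM in Tfh_TILS libraries, 0.33 to 0.67 TPM in Tfh_OTII, 0.952 to 2.75 TPM in Tfh_Vitro and 1.72 to 7.54 TPM in Th1_Vitro. It thus had the same order of groups as Fcer1g, with Tfh_OTII last. Tyrobp was most like Adgre1 (0.967), Mpeg1 (0.959) and Ptgs2 (0.958), and Fcgr4 most like Adgre1 (0.956), Trim30b (0.949) and Slc11a1 (0.946). Fcgr1 was most like Parp12 (0.988), Usp18 (0.987) and Cd14 (0.987), and Fcgr3 most like Cep112, Rbm47 and the macrophage lectin Siglec1 (0.983 each). Fcgr2b was most like Spock2 (0.984), Olfr1396 (0.984) and Hebp1 (0.982), and Spock2 varied little among the tumour libraries, at 3.82 to 4.89 TPM, against 0.163 to 0.822 TPM in Th1_Vitro. Between members, r was highest for Tyrobp with Fcgr4 (0.958) and lowest for Fcer1g with Fcgr2b (0.555), and Fcgr3 with Fcgr2b, which share transcript sequence, had 0.900.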

How the data were processed

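RNA was measured in 12 libraries of 300000 CD4+ T cells each (stranded total RNA without ribosomal RNA, paired reads of 75 bases, per the labels). The authors quantified reads with kallisto on mm10, per the submitters' processing notes, and deposited TPM values, 1 per gene symbol; the kallisto version and transcript annotation are not given in the sources used here. TPM keep no depth, so no counting interval was made. Groups follow titles and source names.

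Models were fitted with limma 3.58.1 (R 4.3.3) on log2(TPM + 1) of all 12 libraries, with 1 mean per group, an intensity trend and Benjamini-Hochberg adjustment over the 23308 of 35492 genes with a group mean of at least 1 TPM. It was tested on simulated data. This gave 6 comparisons. Fold changes on this scale understate changes of low genes. The second scaling used median-of-ratios size factors over 17585 genes. Positions and shared stretches of 31 bases come from GENCODE M21, promoters from RefSeq (GRCm38.p6; 5 of 6 members matched). Python 3.11.15, numpy 2.4.6, pandas 2.3.3 and matplotlib 3.10.9 were used.

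The members and lists were chosen with earlier results of these data known. Beside the members, the rule named all called genes of a list where 5 or fewer were called, otherwise up to 3 higher and 3 lower with the largest change, the 3 genes most like each member, and fixed markers; the text gives part of them, and some genes are not reported here. The alternatives were another scaling, abundant genes left out, a smaller pseudocount (0.1), a stricter filter (5 TPM) or none, only the groups compared, a replicate block, and each library left out.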

Additional observations from a re-analysis of the deposited data

How the results depend on the processing

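Of 468 differences of the members recomputed under the alternatives, 408 kept their direction and side of the threshold, 35 lost a call, 10 gained one and 15 changed sign. For Tfh_TILS against Tfh_Vitro, 3 members were called, and 1 with a pseudocount of 0.1, 1 with no filter, 0 when only these 2 groups were fitted and 0 to 5 with single libraries left out; of the pathway genes 10 were called, 4 when only the 2 groups were fitted and 3 to 24 with libraries left out. Against Tfh_OTII the members called were 4 to 6 and the pathway genes 15 to 29 with libraries left out, against 5 and 23. Against Th1_Vitro the members called stayed at 6 with each library left out, and the pathway genes called were 63, 23 after median-of-ratios scaling, 31 with genes above 1% of TPM left out, and 52 to 67 with libraries left out. For Tfh_OTII against Tfh_Vitro, fitting only these 2 groups called 1 member and 7 pathway genes, against 0 and 0. For Tfh_OTII against Th1_Vitro, 2 members, Fcgr3 and Fcgr2b, both higher, and 33 pathway genes were called. After either scaling or leaving out abundant genes these 2 members lost their call, the 1 member called was Fcer1g, lower, and 14 pathway genes were called; the counts were 1 to 3 and 23 to 36 with libraries left out. For Tfh_Vitro against Th1_Vitro, 2 members and 25 pathway genes were called, 1 and 7 after scaling, 1 and 9 with abundant genes left out, and 1 to 2 and 19 to 29 with libraries left out. Apart from fits with fewer libraries or changed scales, the cause was not tested.

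The differences that changed sign were uncalled ones between cultures. With single libraries left out, Tfh_OTII minus Tfh_Vitro ran from -0.626 to 0.164 for Tyrobp, -0.263 to 0.454 for Fcgr1, -0.417 to 0.262 for Fcgr3 and -0.497 to 0.309 for Fcgr4. Tfh_OTII minus Th1_Vitro ran from -0.807 to 0.26 for Fcgr4. Tfh_Vitro minus Th1_Vitro ran from -0.783 to 0.101 for Fcer1g and from -0.637 to 0.346 for Fcgr4, which was 0.551 with a pseudocount of 0.1.

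No pairing by replicate number was seen. Over 18 pairs with the same number, deviations from group means had a median r of -0.048 (-0.386 to 0.303), against 0.028 over 36 pairs with different numbers. With 3 libraries per group these deviations are tied to each other, so this cannot exclude that same-numbered libraries shared animals or batches. With the replicate block, 2 members were called against Tfh_Vitro, 5 against Tfh_OTII and 6 against Th1_Vitro in Tfh_TILS, and 9, 21 and 63 pathway genes, where 1.2%, 12.4% and 45.6% of all genes were. Depth is unknown, so differences near 0 TPM cannot be given a counting limit.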
